A study of Homo sapiens with 8 samples.

Results

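LSD1 occupancy was examined at the genes that encode LSD1 itself and its partners in the CoREST complex, in MDA-MB-231, a line of human breast cancer cells, with RCOR2 (parental) and without it (RCOR2-KO1). The members were the summits of the LSD1 CUT&RUN peak lists that fell in 9 windows of hg19, 1 for each of RCOR1, RCOR2, RCOR3, KDM1A, HDAC1, HDAC2, REST, PHF21A and HMG20B. The rule used positions only, and the genes were chosen with earlier results of these data known. These windows held 99 of the 201526 summits. Summits at most 500 bp apart were joined into 1 region whatever list they came from, which gave 33 of the 68149 regions of the series.

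Both genotypes were cultured alike and differed in RCOR2, which was disrupted by CRISPR/Cas9 in KO1. For KO in MDA-MB-231 the methods refer to earlier work. After a passage on another cell line, they describe KO cells that were selected singly, checked by immunoblot or genotyping, and mixed as several clones. Whether this covers MDA-MB-231 is not clear from them. Any such selection of KO1 cells would go with the genotype, and its effect was not tested. CUT&RUN cuts chromatin around a bound antibody, here against LSD1, with a tethered nuclease. There were 2 LSD1 libraries per genotype, with 47354 and 54467 summits in the parental and 49586 and 50119 in the KO1 libraries. The methods state that the CUT&RUN was repeated, but neither they nor the labels say whether libraries of 1 genotype came from separate cultures, so p-values measure only the spread between these libraries. The 4 libraries with normal rabbit IgG were used by the authors as input and have no list here. Sequencing depth is unknown. Each summit carries a −log10 value from the peak caller, of a p or of a q, and because this grows with depth it was read as the percentile of the summit within its own list, where a higher percentile is a stronger summit.

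LSD1, encoded by KDM1A, removes methyl groups from lysine 4 of histone H3. It works on nucleosomes when held by a CoREST scaffold, which is RCOR1, RCOR2 or RCOR3, together with the deacetylases HDAC1 and HDAC2. PHF21A, also called BHC80, binds the unmethylated histone tail, HMG20B is a DNA-bending HMG-box subunit, and REST is the zinc finger repressor that recruits the complex to neuronal genes outside neurons. An assay of LSD1 occupancy at these genes asks whether the enzyme sits at the genes of its own complex, and comparing genotypes asks whether this differs where the RCOR2 scaffold has been removed.

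The promoters of RCOR1, KDM1A and HDAC1 are shown because the LSD1 regions at their starts were the only start regions of all 4 lists whose genotypes did not overlap. The sequences are the 250 bases before the start from RefSeq (GRCh38.p14, plus strand), at chr14:102592399-102592648, chr1:23019218-23019467 and chr1:32291833-32292082. Capitals mark the GC box GGGCGG on either strand, the motif bound by SP factors. No other searched motif occurred in these 3 sequences.

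RCOR1: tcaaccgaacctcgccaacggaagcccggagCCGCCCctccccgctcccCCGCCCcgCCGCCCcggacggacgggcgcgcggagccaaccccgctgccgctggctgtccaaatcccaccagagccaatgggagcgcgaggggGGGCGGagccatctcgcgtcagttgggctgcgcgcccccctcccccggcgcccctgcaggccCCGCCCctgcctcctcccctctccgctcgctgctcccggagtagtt
KDM1A: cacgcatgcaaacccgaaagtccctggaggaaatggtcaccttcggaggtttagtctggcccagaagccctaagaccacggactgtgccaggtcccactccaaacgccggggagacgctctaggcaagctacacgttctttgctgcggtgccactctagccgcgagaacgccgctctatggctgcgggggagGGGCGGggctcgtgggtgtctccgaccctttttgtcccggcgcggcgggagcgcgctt
HDAC1: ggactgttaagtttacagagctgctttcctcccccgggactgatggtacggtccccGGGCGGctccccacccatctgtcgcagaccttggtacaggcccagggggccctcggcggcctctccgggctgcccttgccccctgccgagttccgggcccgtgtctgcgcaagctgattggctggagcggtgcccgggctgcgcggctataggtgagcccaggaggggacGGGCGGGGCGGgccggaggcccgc

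RCOR1 holds 5 GC boxes, HDAC1 holds 3, of which 2 overlap, and KDM1A holds 1. Among the 9 genes, 8 were in the promoter table with 12 promoters, and 10 of these 12 had a GC box on at least 1 strand, against 42.6% of the 35116 promoters in the table. The median content of G and C was 76% in the member promoters against 58% over all promoters and a median of 31.5 CG steps against 11. The AP-1 motif TGANTCA was in 1 of the 12, a REST promoter, against 6.57% of all promoters. That promoter was also the only member with the ETS motif CCGGAAG, which 8.52% of all promoters hold. The E-box CAGGTG bound by SNAI1 was in none of the 12, against 17.5% of all promoters. The left part of the RE1 element bound by REST, TTCAGCACC, was in none, against 0.288%, and the NRF1 motif was in none, against 1.03%. These are descriptions of sequence in GRCh38 and were not joined to summit positions in hg19.

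Most genes of the complex had an LSD1 region in every list, whereas RCOR2 had summits in the parental lists only. Those summits were weak, at percentiles from 3.70 to 7.34, and a missing summit is a missing peak call, not a shown absence of LSD1. Summits were present in all 9 windows in both parental libraries and in 8 of 9 in both KO1 libraries, the exception being RCOR2. The windows held 23 and 30 summits in the parental libraries and 24 and 22 in the KO1 libraries, so the ranges of both genotypes overlapped. Of the 33 regions, 18 were found in all 4 lists, at 8 genes, which is 54.5% against 52.6% of all regions of the series. A further 6 regions were found in 1 list, 4 of them in a parental and 2 in a KO1 library. The windows spanned 759 kb and held 43.5 regions per Mb, against 23.2 per Mb over the stretch of each chromosome between its outermost summits. That stretch includes sequence far from genes, and the density around other genes was not computed. HMG20B and HDAC1 were the densest, with 143 and 95.2 regions per Mb, and PHF21A the least dense with 28.2.

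**Figure D1:**
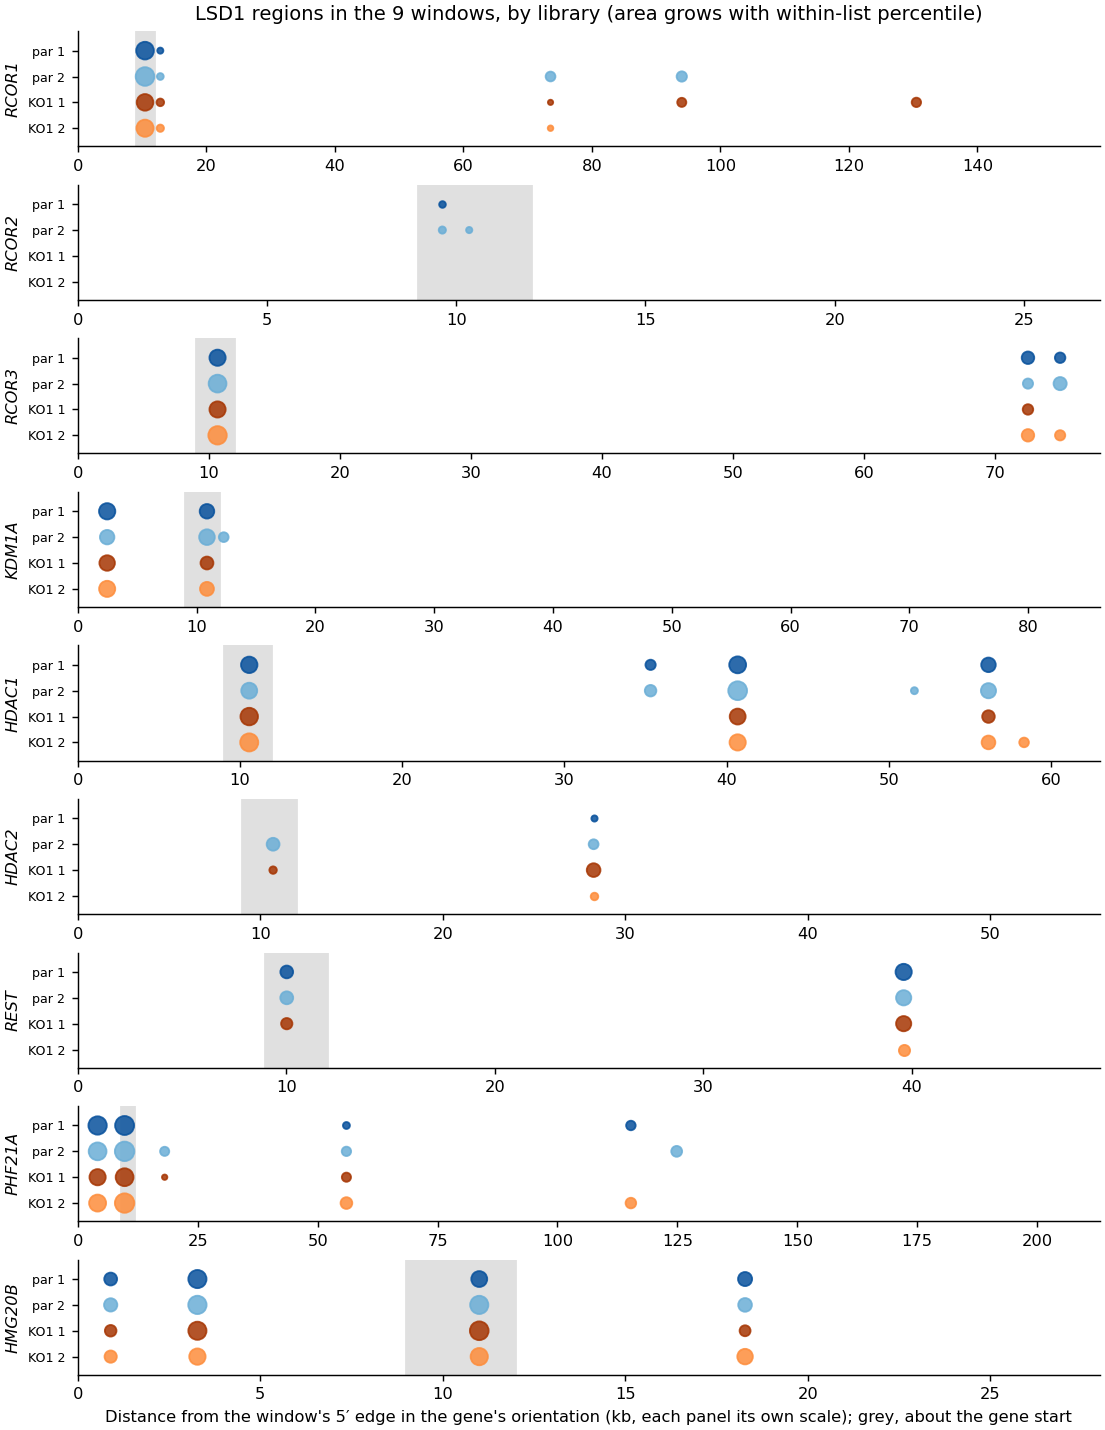
LSD1 regions along the 9 windows, with distance from the window's 5′ edge in kb (horizontal axis, a separate scale for each gene) and 1 row per library; a larger point is a higher within-list percentile and the grey band marks about where the gene starts. RCOR2 has points in the parental rows only, and every window has a point in the grey band in at least 1 library.

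An LSD1 region lay about where the start of each gene was placed, in at least 1 library. How often the starts of other genes hold a region was not computed, so this is not shown to be particular to these genes. The length of each window exceeded that of its gene in the RefSeq annotation by 20.9 to 21.9 kb at 7 genes, so that the gene start lies about 10 kb inside the 5′ edge there. At RCOR2 and HDAC2, whose annotated lengths were greater relative to the window, by 10.5 and 17.9 kb of excess, the start is less sure. The nearest region to a point 10.5 kb inside the edge lay between 9.76 and 11.0 kb from that edge at all 9 genes. It was in all 4 lists at 6 genes, RCOR1, RCOR3, KDM1A, HDAC1, PHF21A and HMG20B, with mean percentiles over the 4 libraries from 49.95 to 93.2 and a median of 77.2. The other 12 regions found in all 4 lists had means from 6.44 to 81.0 and a median of 46.5. Over all 35861 regions of the series found in all 4 lists the median was 60.1.

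The strongest region of each gene gave an order of within-list percentiles, which do not measure the amount of LSD1. Windows ran from 27 kb at RCOR2 to 213 kb at PHF21A, and a longer window can offer more regions to choose from. PHF21A was highest, at 93.2 ± 7.85 (mean percentile ± SD, n = 4 libraries of both genotypes). HMG20B followed at 81.0 ± 9.06, RCOR1 at 79.0 ± 8.63, RCOR3 at 75.4 ± 11.0 and HDAC1 at 73.8 ± 9.38, and these 4 neighbours in the order differed by less than their SDs. PHF21A was above HMG20B by more than either SD, but not in every library. In KO1 replicate 1 HMG20B was higher, at 84.8 against 81.9. KDM1A was at 61.0 ± 7.19, below HDAC1 by more than either SD, and REST at 52.4 ± 16.9, apart from KDM1A by less than its own SD. The strongest region of HDAC2 was in 2 lists, at 39.0 in parental replicate 2 and 8.36 in KO1 replicate 1. The strongest of RCOR2 was in the 2 parental lists, at 5.24 and 7.34, and so ranked among the weakest summits of those lists.

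RCOR2, the scaffold removed in KO1, is described first among the genes. A summit does not report on the RCOR2 protein, so these values are no check of the knockout. Its region lay on chromosome 11 between 63685229 and 63685505, with a −log10 value of 4.66 in parental replicate 1 and 4.74 in parental replicate 2, where the lowest values of the lists were 1.31 and 1.40. Parental replicate 2 had a further summit at 63684657, at percentile 3.70. The closest KO1 summits were 20588 bp away in replicate 1 and 20766 bp in replicate 2. MARK2 is the neighbouring gene. Over the series, 33.5% of the regions found in both parental lists at a mean percentile under 10 were in no KO1 list. With every list cut to the 47354 strongest summits, parental replicate 2 had no summit left at RCOR2, and the gene had 1 summit in 1 library.

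RCOR1 and RCOR3, the other scaffolds, kept LSD1 at their starts in KO1. At RCOR1 the region on chromosome 14 between 103058273 and 103058656 had percentiles of 80.4 and 90.3 in the parental and 70.2 and 74.98 in the KO1 libraries. Both KO1 libraries were below both parental libraries, with a KO1 minus parental difference of -12.7 points (exact permutation test, two-sided, p = 0.333). No smaller p can be had with 2 libraries against 2. The difference was -7.77 without parental replicate 2 and -17.7 without parental replicate 1. A second region just inside the gene, between 103060589 and 103061098, was weak everywhere, at 3.24 and 5.81 in parental and 9.01 and 7.71 in KO1 libraries, with KO1 above parental by 3.84 points, and by 2.55 without parental replicate 1. The remaining 3 regions inside RCOR1 were in 1 to 3 lists, and none was in both parental lists. At RCOR3 the start region on chromosome 1 between 211432485 and 211432857 had percentiles of 66.2 and 81.6 in parental and 66.1 and 87.7 in KO1 libraries, so the genotypes overlapped. The difference there was 2.99 points. It was -7.82 without KO1 replicate 2 and -4.70 without parental replicate 1, and 13.8 and 10.7 without the other replicate of each. Past the 3′ end of RCOR3, a region between 211494500 and 211494570 was in all 4 lists where parental libraries averaged 29.2 ± 10.5 and KO1 libraries 29.9 ± 8.93 (SD, n = 2 each).

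**Figure D2:**
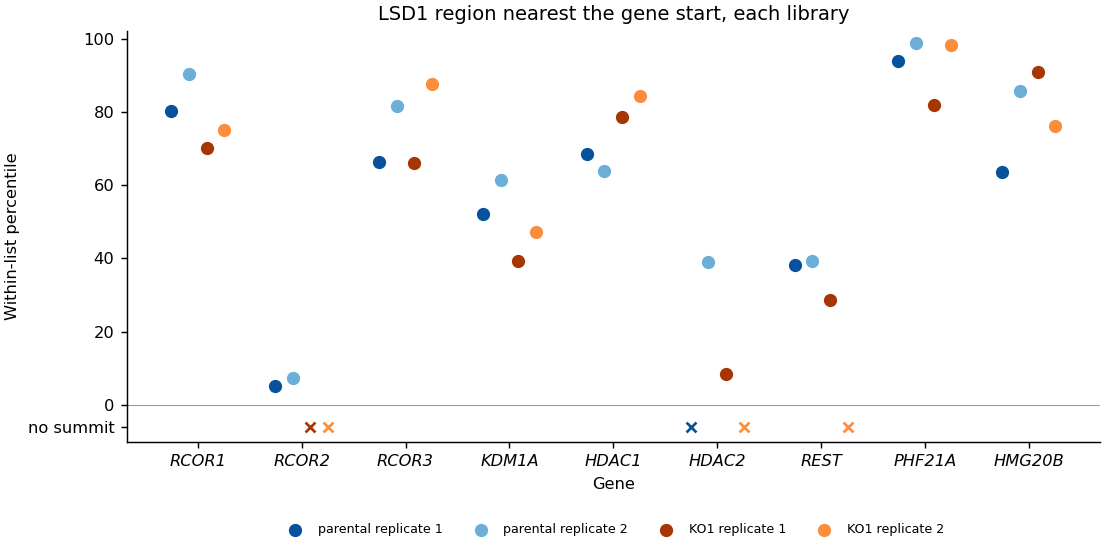
Within-list percentile (vertical axis) of the LSD1 region at the start of each gene (horizontal axis) in the 4 libraries; crosses mark libraries without a summit. For RCOR2 the region of both parental lists is drawn. KO1 points lie below parental points at RCOR1 and KDM1A and above them at HDAC1.

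KDM1A encodes LSD1 itself. At its start, on chromosome 1 between 23345826 and 23345923, LSD1 had percentiles of 52.0 and 61.4 in the parental and 39.2 and 47.2 in the KO1 libraries. Both KO1 libraries were lower, with a difference of -13.5 points (exact permutation test, two-sided, p = 0.333), and -8.83 without parental replicate 2. The strongest region of the window lay upstream of the gene, between 23337459 and 23337489, where the 4 summits fell within 30 bp. It had percentiles of 67.2 and 51.3 in parental and 59.9 and 65.6 in KO1 libraries, which overlapped, and the difference of 3.48 was -4.48 without parental replicate 2. TEX46 and LUZP1 are the neighbouring genes. Another region, at 23347284, was in parental replicate 2 alone at percentile 19.5.

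HDAC1, a deacetylase of the complex, had LSD1 regions that ranked in opposite directions within 1 gene. At its start, on chromosome 1 between 32757533 and 32757611, percentiles were 68.5 and 63.8 in parental and 78.7 and 84.4 in KO1 libraries. This was the largest difference above 0 among the 18 shared regions of these genes, 15.4 points (exact permutation test, two-sided, p = 0.333), and it ran from 12.6 to 18.2 when single libraries were left out. A region inside the gene, between 32787529 and 32787845, had percentiles of 72.7 and 91.7 in parental and 63.6 and 66.5 in KO1 libraries, a difference of -17.2. It was -7.62 without parental replicate 2 and -26.7 without parental replicate 1. Past the 3′ end, the region between 32803102 and 32803200 had percentiles of 52.0 and 57.1 in parental and 37.1 and 45.3 in KO1 libraries, a difference of -13.4. At both, each KO1 library was below each parental one. A weaker region inside HDAC1, between 32782300 and 32782336, was in the parental lists only, at 22.2 and 30.1, with the closest KO1 summit 5500 bp away. Over the series, 14.6% of the regions found in both parental lists at a mean percentile of 20 to 30 were in no KO1 list. LCK and MARCKSL1 adjoin HDAC1 in the RefSeq annotation.

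HDAC2, the paralogous deacetylase, had 2 LSD1 regions, of which 1 was in all 4 lists. Its start region, on chromosome 6 between 114292262 and 114292329, was in 1 library of each genotype, parental replicate 2 and KO1 replicate 1. The region inside the gene, between 114274646 and 114274813, was in all 4 lists at 3.60 and 19.99 in parental and 45.2 and 8.81 in KO1 libraries. The difference of 15.2 points rested on KO1 replicate 1, without which it was -2.98. It was 33.4 without KO1 replicate 2, and 7.003 and 23.4 without parental replicates 1 and 2.

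REST, a repressor that recruits the complex, had its strongest LSD1 region about at its 3′ end, on chromosome 4 between 57803587 and 57803625. Percentiles there were 66.6 and 57.7 in parental and 57.5 and 27.9 in KO1 libraries. The genotypes did not overlap, though parental replicate 2 and KO1 replicate 1 nearly touched. The difference was -19.5 points, the lowest of those 18 (exact permutation test, two-sided, p = 0.333), and it was -4.70 without KO1 replicate 2 and -34.2 without KO1 replicate 1. The start region, between 57773981 and 57774063, was at 38.3 and 39.3 in parental libraries and at 28.6 in KO1 replicate 1, with no summit in KO1 replicate 2.

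PHF21A carried the strongest LSD1 region of the 9 genes by mean percentile, at its start on chromosome 11 between 46143212 and 46143268. Percentiles were 93.8 and 98.8 in parental and 81.9 and 98.1 in KO1 libraries. The genotypes overlapped, and the difference of -6.32 points was 1.82 without KO1 replicate 1 and -14.5 without KO1 replicate 2. A second strong region lay upstream of the gene, between 46148814 and 46148923, at 87.1 and 81.5 in parental and 66.4 and 73.5 in KO1 libraries, a difference of -14.3, with both KO1 libraries below both parental ones (exact permutation test, two-sided, p = 0.333). Of the 4 regions inside PHF21A, 1 was in all 4 lists, between 46096919 and 46097077, where parental libraries averaged 11.8 ± 7.84 and KO1 libraries 23.7 ± 10.5 (SD, n = 2 each).

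HMG20B, the DNA-bending subunit, had 4 regions and all of them were in all 4 lists. The start region, on chromosome 19 between 3572720 and 3573285, had percentiles of 63.5 and 85.7 in parental and 90.9 and 76.2 in KO1 libraries, which overlapped, and the difference of 8.97 was -2.11 without parental replicate 1. The strongest lay upstream, between 3565264 and 3565295, at 85.03 and 86.7 in parental and 84.8 and 67.5 in KO1 libraries. The genotypes were apart there by less than 1 point at their nearest, and the difference of -9.70 was -1.02 without KO1 replicate 2 and -18.4 without KO1 replicate 1. Farther upstream, the region between 3562752 and 3563053 was at 39.1 and 42.3 in parental and 30.4 and 34.8 in KO1 libraries. About at the 3′ end, the region between 3580269 and 3580304 averaged 46.8 ± 2.03 in parental and 43.3 ± 24.1 in KO1 libraries (SD, n = 2 each).

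Among the 18 regions of all 4 lists, both KO1 libraries were below both parental libraries at 8, which is 44.4% against 22.4% of all regions of the series found in all 4 lists. Both KO1 libraries were above at 2, which is 11.1% against 19.6%. The 8 were in the windows of RCOR1, KDM1A, HDAC1 with 2, REST, PHF21A and HMG20B with 2, and the 2 were in those of RCOR1 and HDAC1. Of the 8, those at PHF21A and HMG20B lay upstream of the gene and 1 at HDAC1 past its 3′ end. With windows narrowed by 5 kb, 14 regions were in all 4 lists. KO1 was then below at 5 and above at 2, with a median difference of -1.45. Some of the 8 were near ties. At REST, parental replicate 2 was at 57.7 and KO1 replicate 1 at 57.5. At the strongest region of HMG20B, parental replicate 1 was at 85.03 and KO1 replicate 1 at 84.8. Regions of 1 gene may also not be independent. The median difference over the 18 was -4.93 points, against -0.578 over all 35861 regions. Differences below 0 were found at 10 of the 18, against 52.6% of all regions. Differences of the members ran from -19.5 to 15.4, inside the 5th and 95th percentiles of all regions, -24.7 and 24.0. No score over the members was tested, since the genes were chosen with earlier results known.

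**Figure D3:**
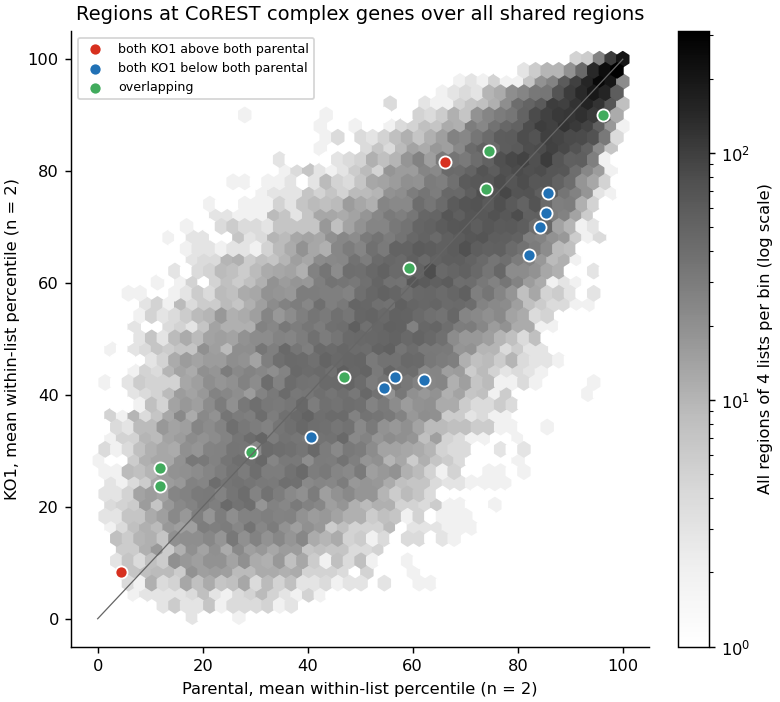
Mean within-list percentile in KO1 (vertical axis) against parental cells (horizontal axis), n = 2 libraries each, for the 18 shared regions of the CoREST complex genes as colored points over all 35861 shared regions in grey. Of the colored points, 8 lie below the diagonal without overlap of the libraries and 2 above it, and all lie within the grey cloud.

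Values of the chromosome around these genes are given beside this. The median difference of the other shared regions within 5 Mb of a member ran from -3.89 at HDAC1 to 1.25 at HDAC2, against -0.578 over the series. It was -0.0983 to 0.0603 at RCOR3 and -0.875 to -0.829 at REST, and -1.30 or lower at RCOR1, RCOR2, KDM1A, HDAC1, PHF21A and HMG20B. The spread of such medians over the genome was not computed. When each library's median within 5 Mb was subtracted, both KO1 libraries were below both parental ones at 5 of the 18 regions, against 21.2% of all regions, and above at 3, against 20.9%. The 5 were the start of KDM1A, the 2 at HDAC1, and those at REST and upstream of PHF21A. The 3 were the start of HDAC1, the weak region at RCOR1 and the one inside PHF21A. The median difference over the members was then -1.46 points.

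**Figure D4:**
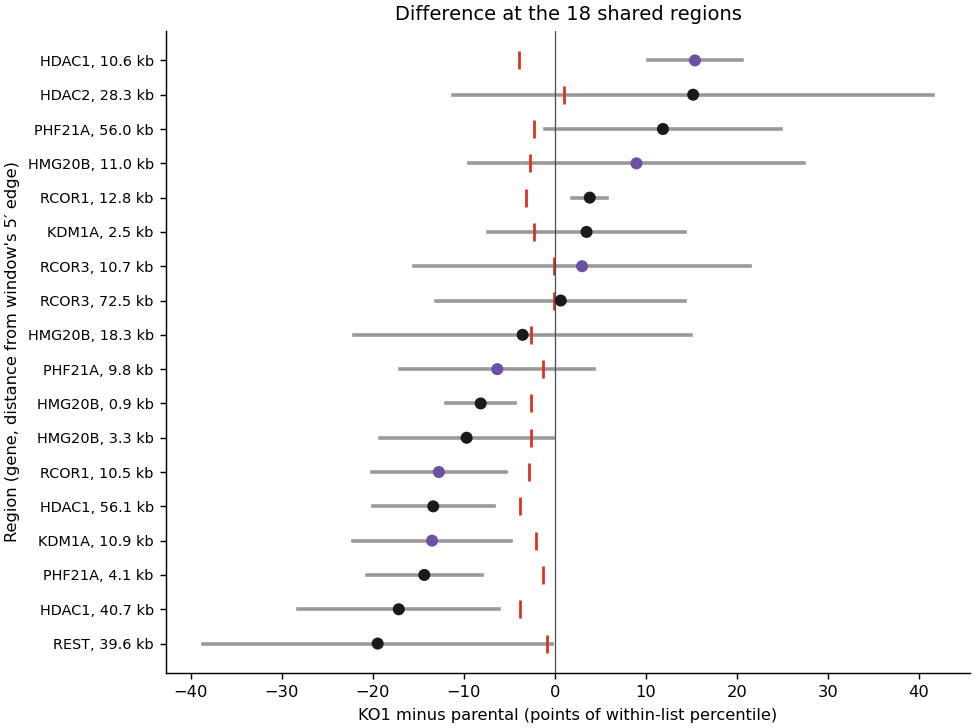
KO1 minus parental difference in points of within-list percentile (horizontal axis) at the 18 shared regions, named by gene and distance from the window's 5′ edge. Points are differences of means (purple for start regions), grey bars run from the smallest to the largest difference between a KO1 and a parental library, and red ticks give the median of other shared regions within 5 Mb. The bars of 8 regions end below 0 and those of 2 begin above 0.

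Regions of 1 genotype were few. Both libraries of at least 1 genotype held 23 of the 33 regions, and of these 2 were in both parental and no KO1 list, at RCOR2 and HDAC1, which is 8.70% against 5.84% over the series. None was in both KO1 and no parental list, against 4.99%. Leaving out parental replicate 1, so that a single library stood for parental cells, raised the parental count to 6. Leaving out any of the other libraries raised the KO1 count to 1. The shared regions had a median span of 104 bp against 103 bp over the series and a range from 30 to 565 bp. Joining only summits at most 500 bp apart keeps such spans short by construction.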

How the data were processed

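LSD1 CUT&RUN in 2 parental and 2 RCOR2-KO1 libraries was analysed. Per the labels, the authors mapped reads to hg19 and used FastQC 0.11.2, Bowtie2 2.3.3.1, Picard and MACS2 2.1.0; the −log10 of a p or q value was deposited with each summit of 1 bp, and which of them it is was not given in the sources used here. Peaks were called in each library against IgG, so a presence depends on that library's depth and threshold.

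Scripts ran in Python 3.11.15 with scipy 1.17.1, numpy 2.4.6, pandas 2.3.3 and, for plots, matplotlib 3.10.9. Percentiles were ranked within each list, summits at most 500 bp apart were joined, and a region took its highest summit per list. Windows are those given for the 9 genes; starts were placed from window and gene lengths, with no coordinate converted between builds. RefSeq tables of GRCh38.p14 gave neighbours within 10 kb and promoters. The test between genotypes was an exact, two-sided permutation of the 4 libraries. The steps were tested on simulated lists. All 9 genes were named, with their strongest and start regions, those of 1 genotype and the 3 largest differences without overlap in each direction; further regions of these genes were added after their values were seen. Members, lists and motifs were chosen with earlier results of these data known. Other genes of the complex and its recruiters need an annotation of hg19 and were not analysed here. Alternatives changed the joining distance, the lists, the windows, the percentile, the libraries and the replicate block.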

Additional observations from a re-analysis of the deposited data

How the results depend on the processing

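Depth is unknown, and ranks show no change that affects all summits alike; 2 libraries against 2 cannot give a p below 0.333. Subtraction of local medians was chosen after seeing the data.

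The 18 regions of all 4 lists stayed between 14 and 22 with other distances, windows or equal lists and were 9 in the upper 50% of each list, by construction. There, KO1 was above at 1 and below at 4. Parental-only regions were 1 at 250 bp, where the RCOR2 summits were no longer joined, and 1 with equal lists. Windows narrowed by 5 kb gave 5 regions with KO1 below and a median difference of -1.45, with fewer regions by construction. Widened ones gave 4 with KO1 above and 10 below, and a median difference of -4.93. Local values gave 5 below and a median of -1.46. Without 1 library each, regions of all lists were 18 to 19, parental-only regions 2 to 6, KO1-only regions 0 to 1, KO1 above 4 to 5, KO1 below 9 to 12, and the median difference -9.30 to -2.98, the first without parental replicate 1 and the last without KO1 replicate 1; 1 genotype then rests on 1 library.

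Under a replicate block, which uses the numbers as pairs, the median difference was -4.93, the same value by construction. Libraries of the same number shared no visible effect on ranks (correlation of replicate differences 0.00722 across shared regions). This cannot show whether they were prepared together. The smallest two-sided p from 2 pairs is 0.5. Of 63 recomputed differences at the strongest shared region of a gene, 5 changed sign, all with a library left out, at RCOR3, KDM1A, HDAC2 and PHF21A.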

Other observations

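Just outside the windows, 4 regions were in all 4 lists within 5 kb of an edge. Upstream of RCOR1, a region on chromosome 14 between 103046299 and 103046383 had percentiles of 51.5 and 72.6 in the parental and 88.8 and 87.3 in the KO1 libraries, the opposite direction to the start of RCOR1. Past HDAC1, a region on chromosome 1 between 32814903 and 32814979 was at 92.4 and 89.5 in parental and 65.2 and 79.2 in KO1 libraries. Past RCOR3, a region between 211500304 and 211501036 was at 24.2 and 27.5 in parental and 0.510 and 7.66 in KO1 libraries. Past the 3′ end of PHF21A, a region on chromosome 11 between 45939606 and 45939750 was at 83.0 and 91.1 in parental and 91.1 and 95.3 in KO1 libraries. These lie outside the windows of the 9 genes and entered no count above, except those with windows widened by 5 kb.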
